A study of Mus musculus with 4 samples.

Results

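Histone deacetylases remove acetyl groups from lysines of histones and of other proteins. Transcripts of 10 of their genes were followed here in adult mouse cerebral cortex: Hdac1, Hdac2, Hdac3, Hdac8, Hdac4, Hdac5, Hdac7, Hdac9, Hdac6 and Hdac11. Every probe set that carried one of these symbols in the authors' deposited table was taken, which gave 17 of 45101 probe sets. A probe set is a group of short array probes whose signals are summarised into 1 value. Of the genes, 5 had 1 probe set and 5 had several, so the probe sets are not 17 independent readings.

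The mice were C57BL/6J females, an inbred laboratory strain, and no transgene or mutant allele was named. One group of dams received a nicotine solution from conception and the other a saccharin solution, a sweetener; offspring were taken off either solution at day 21 and left alone until 90 days of age. Cortical RNA was pooled over 4 animals, biotinylated and read on Affymetrix arrays. The labels speak of 5 pools a group and 20 animals in all, and 4 arrays were analysed, 2 titled nicotine (numbers 1 and 2) and 2 titled saccharin (numbers 1 and 2). Title and source name contradict each other on all 4 arrays about the exposure. Groups and signs below follow the titles, and all signs turn round if the source names hold. The labels leave unsaid what the numbers stand for and whether 2 arrays with the same title carry different pools. The p-values therefore measure the spread between these arrays only, and that spread may be technical.

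Class I enzymes (Hdac1, Hdac2, Hdac3 and Hdac8) are mainly nuclear, and the first 3 work as catalytic subunits of corepressor complexes. Class IIa members (Hdac4, Hdac5, Hdac7 and Hdac9) have little deacetylase activity of their own, bind MEF2 transcription factors, and leave the nucleus when calcium-dependent and related kinases phosphorylate them and 14-3-3 proteins hold them in the cytoplasm. Hdac6, of class IIb, deacetylates tubulin in the cytoplasm, and Hdac11 is the sole member of class IV. In brain, Hdac2 is known as a brake on memory formation, and Hdac11 transcripts are known from neurons and oligodendrocytes.

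The start regions of 4 members are shown as context for the results below. Hdac4, Hdac5 and Hdac9 are the class IIa genes with a probe set above 7 on the log2 scale, and Hdac11 gave the most even differences within the array numbers. The RefSeq promoter table of mouse build GRCm38.p6 served for 8 of the 10 genes, with 12 windows of 300 bases that run from 250 before to 50 after a start. Capitals mark a GC box (GGGCGG, or CCGCCC for the other strand) or a match to the MEF2 consensus, which reads alike on both strands and overlaps no GC box here. The Hdac4 window is chr1:92180292-92180591 (minus strand), the Hdac5 window chr11:102230123-102230422 (minus), the upstream of 2 Hdac9 windows chr12:34917046-34917345 (minus) and the Hdac11 window chr6:91156565-91156864 (plus).
Hdac4: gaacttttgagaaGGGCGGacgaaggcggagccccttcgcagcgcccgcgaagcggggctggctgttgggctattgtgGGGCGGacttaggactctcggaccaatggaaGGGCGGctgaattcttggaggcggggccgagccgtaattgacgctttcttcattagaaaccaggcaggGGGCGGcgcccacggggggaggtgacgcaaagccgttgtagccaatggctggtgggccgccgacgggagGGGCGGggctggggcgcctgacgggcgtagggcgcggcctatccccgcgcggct
Hdac5: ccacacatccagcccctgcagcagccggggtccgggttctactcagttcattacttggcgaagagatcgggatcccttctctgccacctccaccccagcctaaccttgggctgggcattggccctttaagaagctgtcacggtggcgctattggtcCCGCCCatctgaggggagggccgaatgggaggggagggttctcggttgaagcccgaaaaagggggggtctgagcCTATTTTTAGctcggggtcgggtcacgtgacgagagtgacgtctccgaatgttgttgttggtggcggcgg
Hdac9: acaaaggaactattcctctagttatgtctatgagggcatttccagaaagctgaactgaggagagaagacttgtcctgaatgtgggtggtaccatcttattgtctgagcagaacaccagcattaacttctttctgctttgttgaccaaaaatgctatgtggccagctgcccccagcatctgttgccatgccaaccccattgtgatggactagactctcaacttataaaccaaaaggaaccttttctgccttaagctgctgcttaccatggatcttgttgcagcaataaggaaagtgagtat
Hdac11: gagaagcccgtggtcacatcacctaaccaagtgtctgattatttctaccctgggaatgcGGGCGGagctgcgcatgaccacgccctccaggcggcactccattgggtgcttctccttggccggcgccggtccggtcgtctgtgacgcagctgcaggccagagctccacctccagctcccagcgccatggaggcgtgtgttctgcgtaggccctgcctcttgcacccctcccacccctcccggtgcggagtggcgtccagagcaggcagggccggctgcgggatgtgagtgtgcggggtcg

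The windows differ in base composition. Hdac4 has 32 CpG pairs and 5 GC boxes, Hdac5 has 18 CpG pairs with 1 GC box, and Hdac11 has 22 CpG pairs with 1 GC box, against a median of 7 CpG pairs over all 32851 windows of the table. The Hdac9 window shown has 0 CpG pairs and 0 GC boxes, and the other one, at chr12:34528840-34529139, has 3 and 0. A GC box stood in 6 of the 12 member windows and in 35.7% of all windows. The MEF2 consensus matched in 1 of the 12, that of Hdac5, and in 3.19% of all windows. These matches describe letters and are not binding sites.

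Whole-array values set the scale for what follows. Array medians lay between 3.88 and 4.09 on the deposited log2 scale, the median level over all probe sets (mean of the 4 arrays) was 4.04, and the lowest value, at which 25.0% to 25.3% of the probe sets of each array stood, was 2.10. Neuron markers averaged 13.46 to 13.71 and cortical layer markers 11.08 to 11.37 per array. The striatal markers Drd2 and Adora2a and the choroid plexus marker Kl lay close to the lowest value, whereas the choroid plexus transcript Ttr was at 12.01 and 13.96 in titled nicotine 1 and 2, against 11.84 and 10.75 in titled saccharin 1 and 2. In such tissue RNA, fewer cells of a type and less RNA per cell cannot be told apart. The number of arrays limits every value: an exact two-sided permutation test of 2 against 2 cannot give a p below 0.333.

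No histone deacetylase passed the test between the titles. Of the 12 probe sets with a mean above 7, 11 differed by less than 0.2 on the log2 scale. Among the 15 at the median level, 12 differed by less than 0.2 and 3 by more than 0.4. The shares of all probe sets within these limits were not counted. With limma, 0 of the 17 probe sets passed an adjusted p of 0.05, and 0 of 17 had an unadjusted p below 0.05 (0.00222% and 0.769% of all probe sets). Of the 17, 15 reached the median level, and the arrays of the 2 titles overlapped in all 15, where 9.31% of all probe sets at that level did not overlap (titled nicotine above in 2.86% and below in 6.46%). Over the 10 genes, each at its brightest probe set, the median of titled nicotine minus titled saccharin was -0.039, against -0.029 over all 12206 genes at the median level. That median was 0.0082 within number 1 and -0.073 within number 2. The same median was -0.18 without the array titled nicotine 1, 0.0087 without titled saccharin 1, and 0.014 with every array centred on its own median. Within both numbers 1 of the 10 genes was higher in titled nicotine and 3 were lower (16.8% and 30.6% of all genes at the median level). The fold changes of the authors' deposited table and the differences by title correlated at r = -0.871 across probe sets, which are not independent replicates. The direction of those fold changes is not stated, so an opposite sign need not mean an opposite change.

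**Figure D1:**
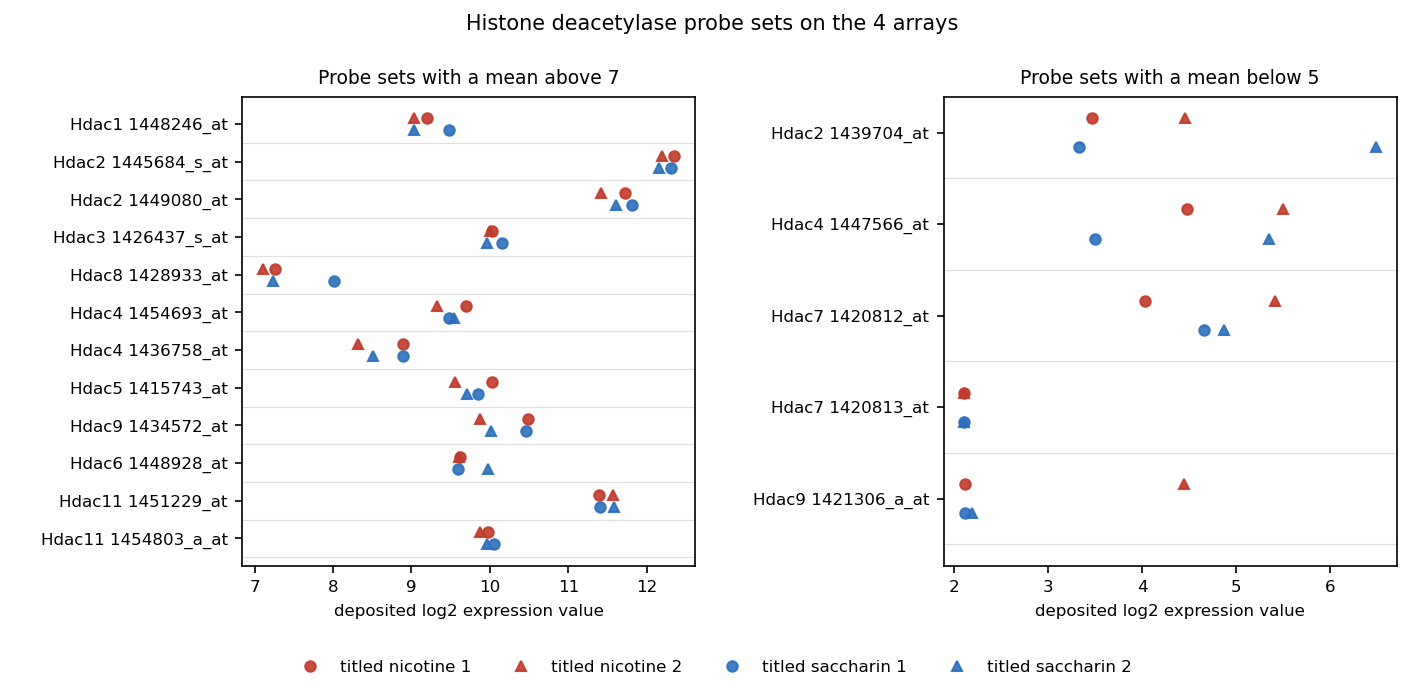
Deposited log2 expression values of the 17 histone deacetylase probe sets (horizontal axis) by probe set (rows), with red for titled nicotine above blue for titled saccharin, circles for arrays numbered 1 and triangles for arrays numbered 2; 12 probe sets with a mean above 7 are on the left and 5 with a mean below 5 on the right. Red and blue overlap in the 12 rows on the left, and in several rows, such as Hdac9 1434572_at, the circles lie apart from the triangles.

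Among the class I genes, Hdac1, a catalytic subunit of the Sin3, NuRD and CoREST complexes, was at 9.19 and 9.03 in titled nicotine 1 and 2, against 9.48 and 9.04 in titled saccharin 1 and 2; later values keep that order. The array titled saccharin 1 stood above the other three, which lay close together. The difference of -0.15 (SE 0.219, 95% interval -0.97 to 0.68, limma adjusted p = 1) was -0.29 within number 1 and -0.0030 within number 2.

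Hdac2, the close relative of Hdac1 in the same complexes, had 3 probe sets. Probe set 1445684_s_at, whose suffix means that its probes can match more than 1 transcript, read 12.35 and 12.20 in titled nicotine and 12.32 and 12.15 in titled saccharin. Within each number the titled nicotine array was a little higher, by 0.036 and 0.047. Probe set 1449080_at ran the other way, at 11.72 and 11.41 in titled nicotine and 11.81 and 11.60 in titled saccharin, or -0.093 and -0.19 within numbers 1 and 2. The third, 1439704_at, near the median level, read 3.46 and 4.46 in titled nicotine and 3.33 and 6.49 in titled saccharin. Its spread of over 3 units between the arrays titled saccharin exceeded the difference of -0.95 (SE 1.54, limma adjusted p = 1), so the 3 probe sets gave no common direction for Hdac2.

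Hdac3, the catalytic subunit of the NCoR complex, read 10.03 and 10.01 in titled nicotine and 10.15 and 9.97 in titled saccharin. Its probe set, 1426437_s_at, has the same suffix as Hdac2 1445684_s_at, so its probes too can match more than 1 transcript. The 4 values spanned less than 0.2, and the difference of -0.042 had a 95% interval of -0.37 to 0.29 (limma adjusted p = 1); it turned to 0.012 with centred arrays. Hdac8, whose known substrates include cohesin, read 7.26 and 7.11 in titled nicotine and 8.02 and 7.24 in titled saccharin. Its difference of -0.45 (SE 0.368, 95% interval -1.84 to 0.94, limma adjusted p = 1) was the one above 0.2 in size among the 12 probe sets with a mean above 7. The array titled saccharin 1 stood apart for Hdac8 as it did for Hdac1. Hdac8 was at -0.76 within number 1 and -0.13 within number 2.

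Of the class IIa genes, Hdac4 at its brightest probe set, 1454693_at, read 9.69 and 9.32 in titled nicotine and 9.48 and 9.54 in titled saccharin. The 2 arrays titled nicotine lay on either side of those titled saccharin, which gave 0.21 within number 1, -0.22 within number 2 and a difference of -0.0024 (SE 0.173, limma adjusted p = 1). Hdac4 probe set 1436758_at read 8.89 and 8.32 in titled nicotine and 8.89 and 8.51 in titled saccharin. The difference was -0.097 (SE 0.319, limma adjusted p = 1). Its values went with the number rather than the title. The dim probe set 1447566_at read 4.48 and 5.50 in titled nicotine and 3.50 and 5.35 in titled saccharin, a positive difference of 0.57 with an SE of 0.983.

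Hdac5, which restrains MEF2-dependent and activity-induced transcription in neurons, read 10.03 and 9.56 in titled nicotine and 9.85 and 9.71 in titled saccharin. Here too the arrays titled nicotine enclosed those titled saccharin, with 0.17 within number 1, -0.15 within number 2 and a difference of 0.012 (SE 0.228, 95% interval -0.85 to 0.87). Hdac9 at 1434572_at read 10.49 and 9.88 in titled nicotine and 10.46 and 10.01 in titled saccharin. Its difference was -0.053 (SE 0.352, limma adjusted p = 1), which splits into 0.028 on number 1 and -0.13 on number 2, and it turned to 0.00053 with centred arrays.

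The dimmest readings of the class came from Hdac7 and a second Hdac9 probe set. Hdac7, known above all from thymus and vessel wall, read 4.04 and 5.42 in titled nicotine and 4.66 and 4.87 in titled saccharin at probe set 1420812_at, so the titles again overlapped. Its sign was negative within number 1 (-0.62) and positive within number 2 (0.55). The other Hdac7 probe set, 1420813_at, stood at 2.11 on all 4 arrays. Hdac9 probe set 1421306_a_at read 2.12 and 4.45 in titled nicotine and 2.12 and 2.19 in titled saccharin, so that 1 array carried its whole difference of 1.13 (SE 1.08, limma adjusted p = 1). The same array, titled nicotine 2, held the highest Ttr value given above, and a link between the 2 was not tested.

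Hdac6, the tubulin deacetylase of class IIb, read 9.63 and 9.60 in titled nicotine and 9.59 and 9.98 in titled saccharin. Of the 4 arrays, 3 lay close together and titled saccharin 2 stood above them. The difference of -0.17 (SE 0.178, 95% interval -0.84 to 0.50, limma adjusted p = 1) was 0.033 within number 1 and -0.37 within number 2.

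Hdac11 had 2 probe sets, and among the members at the median level theirs were the most even differences within the numbers. Probe set 1454803_a_at read 9.98 and 9.88 in titled nicotine and 10.06 and 9.96 in titled saccharin, which is -0.078 within number 1 and -0.082 within number 2. The pooled difference was -0.080 (SE 0.0669, 95% interval -0.33 to 0.17, limma adjusted p = 1). At 1451229_at the values were 11.39 and 11.58 in titled nicotine and 11.40 and 11.59 in titled saccharin, or -0.0112 and -0.0116 within the numbers. These differences are smaller than the step between the numbers, and that of 1451229_at turned to 0.042 with centred arrays and to 0.00046 under quantile normalization. With the number as a block, 3 of the 17 probe sets had an unadjusted p below 0.05 in limma, the 2 of Hdac11 (adjusted p = 0.496 and 0.806) and 1445684_s_at of Hdac2 (adjusted p = 0.915), against 4.92% of all probe sets, and 0 of 17 passed after adjustment (0% of all probe sets).

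**Figure D2:**
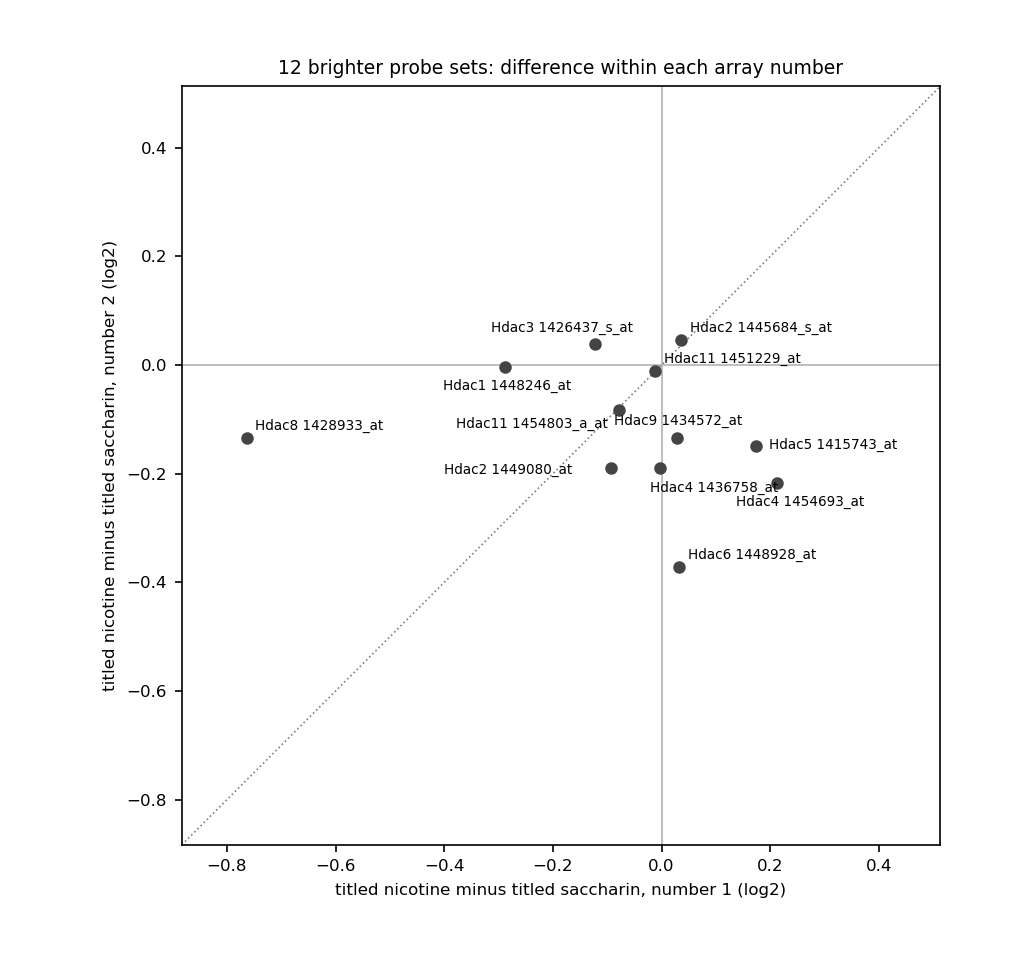
Titled nicotine minus titled saccharin on the log2 scale within number 1 (horizontal axis) and within number 2 (vertical axis) for the 12 histone deacetylase probe sets with a mean above 7; the dotted line marks equal differences. The 2 Hdac11 probe sets and Hdac2 1445684_s_at lie on the line close to 0, Hdac8 lies far to the left at -0.76 and -0.13, and the points for Hdac4 1454693_at, Hdac5, Hdac6 and Hdac9, right of 0 and below it, have opposite signs in the 2 numbers.

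Within both numbers titled nicotine was lower in 6 of the 15 probe sets at the median level and higher in 2, and the other 7 had opposite signs. Over all probe sets at that level the shares were 27.6% lower and 18.9% higher. With 1 array left out, 13 of the 15 differences changed sign in at least 1 of the 4 fits. The share over all probe sets was not counted. Leaving out an array moves a difference by part of the step between the numbers. That step, averaged over the titles, was larger than the difference in all 15 and in 81.8% of all probe sets at that level. Hdac8 and Hdac11 1454803_a_at kept their sign but not their size. Hdac8 stood at -0.060 without titled saccharin 1 and at -0.84 without titled saccharin 2, and Hdac11 1454803_a_at ranged from -0.13 (without titled nicotine 1 or titled saccharin 2) to -0.028 (without titled nicotine 2).

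The authors' deposited table gives a second reading of the same probe sets. Its p-values correspond to a moderated statistic with 8.37 total degrees of freedom, where the fit of these 4 arrays had 2.32, and which arrays went into it is unknown here. Of the 17 probe sets, 0 passed an adjusted p of 0.05 in the authors' deposited table (0.031% of all probe sets did). In the authors' deposited table Hdac6 alone had an unadjusted p below 0.05 (1.89% of all probe sets), with a log2 fold change of 0.26, a p of 0.0102 and an adjusted p of 1. The sign of the authors' deposited table was opposite to that by title for 12 probe sets and the same for 4, and both were 0 for Hdac7 1420813_at. Because the direction of its fold changes is not stated, these counts do not show whether the 2 readings differ in direction. Hdac11 1454803_a_at stood at 0.070 and Hdac8 at 0.053 in the authors' deposited table. Mean levels in the authors' deposited table were lower than over the 4 arrays for 14 of the 17 probe sets and higher for 3. The widest gaps were at Hdac2 1439704_at, Hdac4 1447566_at and Hdac8, with 2.34, 2.80 and 6.10 in the authors' deposited table, against 4.43, 4.71 and 7.41 here.

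**Figure D3:**
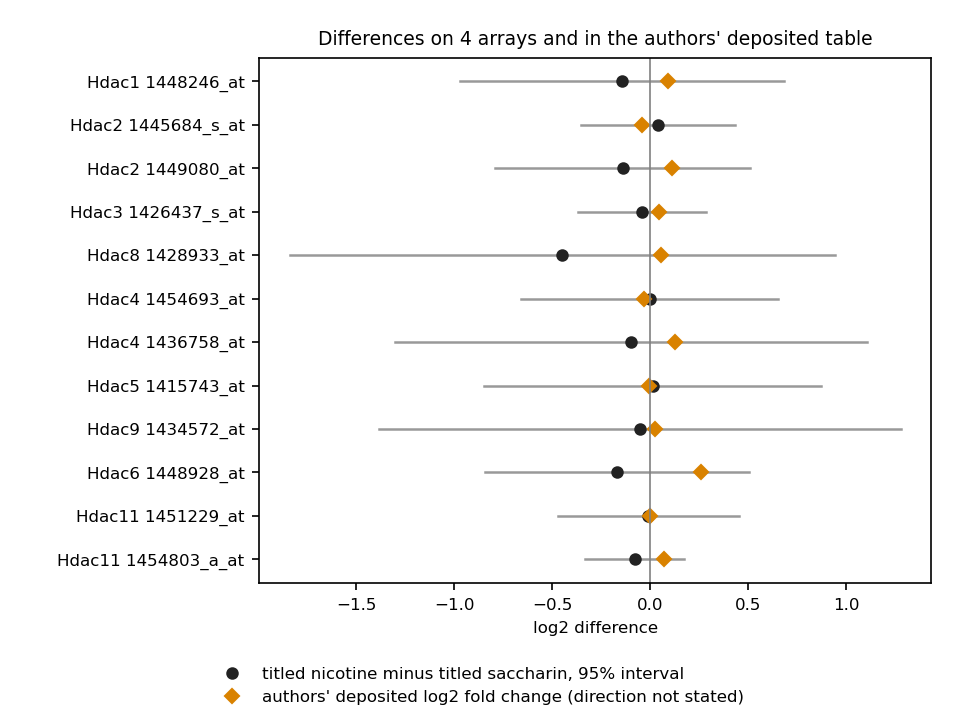
Titled nicotine minus titled saccharin on the log2 scale (black points, with the 95% interval of the limma fit as grey lines, 2 arrays per title) and the log2 fold change of the authors' deposited table (orange diamonds, direction not stated) for the 12 probe sets with a mean above 7. Every interval spans 0, and the diamond for Hdac6 at 0.26 and its black point at -0.17 lie on opposite sides of it.

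In all 15 probe sets at the median level the step between the array numbers was larger than the difference between the titles, as it was in 81.8% of all probe sets at that level. Among the 15 probe sets at the median level, the arrays numbered 2 were lower than those numbered 1 under both titles in 9 and higher under both in 4. Over all probe sets at that level these shares were 50.3% and 31.4%. In the same 9 and 4 the arrays of the 2 numbers did not overlap at all (46.3% and 28.5% of all). Over the 10 genes the median of number 2 minus number 1 was -0.16, against -0.18 over all genes at the median level, so the members lay near the background. In limma with title as a term, 0 of 17 passed after adjustment (0% of all probe sets), and 4 had an unadjusted p below 0.05 (16.8% of all).

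Each of the 4 class I genes was lower in number 2 under both titles, as were 59.6% of all genes at the median level. Number 2 minus number 1 was -0.16 in titled nicotine and -0.44 in titled saccharin for Hdac1. The same quantity for Hdac2 1445684_s_at was -0.153 and -0.163 (limma adjusted p = 0.155), and for Hdac8 it was -0.15 and -0.78. Hdac3 was at -0.025 and -0.19. The class I values therefore shared a sign but not a size.

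Hdac9 1434572_at gave one of the larger steps, -0.61 in titled nicotine and -0.45 in titled saccharin, with a mean of -0.53 (SE 0.0700, limma adjusted p = 0.292). Hdac4 1436758_at gave -0.57 and -0.38 (adjusted p = 0.329), but the brighter Hdac4 1454693_at gave -0.37 and 0.062. Hdac5 was at -0.47 and -0.15. In these class IIa genes the step between the numbers was larger than the difference between the titles. Dim probe sets of Hdac4 and Hdac2 ran the other way: Hdac4 1447566_at gave 1.02 and 1.85, and Hdac2 1439704_at 1.00 and 3.16.

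For Hdac11 the 2 probe sets gave opposite and closely repeated steps. Probe set 1451229_at gave 0.186 under both titles (SE 0.000916, limma adjusted p = 0.0907, or 0.0437 without title as a term, the one member called in that fit, where 2.44% of all probe sets were). Probe set 1454803_a_at gave -0.104 in titled nicotine and -0.100 in titled saccharin (adjusted p = 0.131). A single gene thus read higher on number 2 by one probe set and lower by the other. Hdac6 gave -0.022 in titled nicotine and 0.38 in titled saccharin.

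Other values differed by number as well. The Actb control probe sets, whose 3′ minus 5′ value is larger where RNA is more degraded or labelled less evenly, differed by 1.25 and 1.73 on the arrays numbered 2 titled nicotine and titled saccharin, against 2.39 and 2.38 on those numbered 1. The same value for Gapdh differed less by number. It was -0.14 and 0.0070 on number 2, against 0.092 and 0.13 on number 1. The 5 astrocyte markers did not go one way. As number 2 minus number 1, averaged over the titles, Gfap was at 3.21, Slc1a2 at 0.58, Slc1a3 at 0.24 and Aqp4 at -0.27, while Aldh1l1 stood near the lowest value throughout. Their mean was 10.61 and 10.62 on number 2, against 9.85 and 9.90 on number 1, and Gfap made up most of that gap. The 6 neuron markers were mixed too, with 3 higher on number 2 under both titles and 3 lower. Averaged over the titles, Slc17a7 was at 2.46 and Rbfox3 at -0.76. The part of these values in the steps of the histone deacetylases was not tested.

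**Figure D4:**
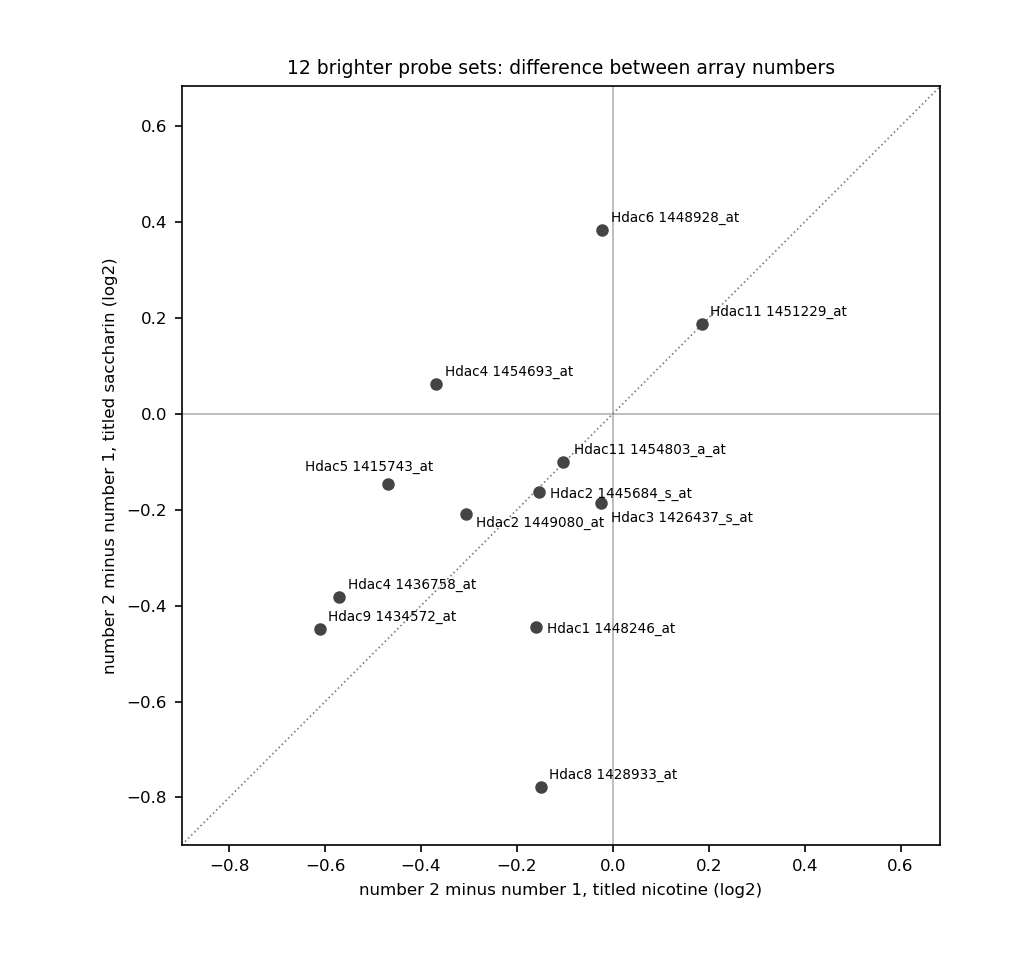
Number 2 minus number 1 on the log2 scale in titled nicotine (horizontal axis) and in titled saccharin (vertical axis) for the 12 histone deacetylase probe sets with a mean above 7; the dotted line marks equal steps. At the lower left lie 9 points, Hdac11 1451229_at lies on the line at 0.186, and Hdac4 1454693_at and Hdac6 have opposite signs under the 2 titles.

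The proteins that histone deacetylases work with were read from 7 lists, of whose 73 genes 70 were matched. In limma 0 of the 70 passed after adjustment (0.00222% of all probe sets), and 2, Sin3b and Camk4, had an unadjusted p below 0.05 (1.63% of genes at the median level). Of the 69 genes at the median level, the groups did not overlap in 7, with titled nicotine above in 2 and below in 5 (2.71% and 7.21% of all such genes). The median difference over the 70 was -0.020, against -0.029 over all genes at the median level.

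Corepressor subunits carry the class I enzymes to chromatin. The median difference was -0.017 over 12 NuRD genes, -0.040 over 13 Sin3 genes, -0.025 over 7 CoREST genes and -0.011 over 4 NCoR genes, with 0 called in each. Sin3b, a scaffold of the Sin3 complex, read 10.06 and 10.10 in titled nicotine and 10.22 and 10.20 in titled saccharin. The difference was -0.13 (SE 0.0217, limma adjusted p = 1). Its groups did not overlap, while those of Sin3a (-0.20) and Ing2 (-0.079) did. Rest, the repressor of neuronal genes that recruits CoREST, read 5.96 and 5.63 in titled nicotine and 6.29 and 5.98 in titled saccharin, or -0.33 and -0.35 within the numbers (adjusted p = 1, or 0.472 with the number as a block).

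The other named corepressor genes were mixed. Kdm1a, the demethylase of CoREST, differed by -0.17 and Rcor2 by 0.12. Tbl1xr1 of the NCoR complex was at -0.14 within number 1 and -0.15 within number 2, Gps2 differed by 0.29 (0.051 without titled nicotine 2 and 0.53 without titled nicotine 1), and the scaffold Ncor1 differed by -0.022 (SE 0.549), or 0.032 with centred arrays. Of the NuRD genes, Mta1 differed by -0.11, Rbbp7 by -0.065 and the remodeller Chd4 by -0.37 (SE 0.767), each with a limma adjusted p of 1.

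Kinases and 14-3-3 proteins that move class IIa enzymes out of the nucleus had a median difference of 0.00016 over 18 genes. Camk4, a calcium-dependent kinase of neurons that phosphorylates class IIa enzymes, read 13.02 and 12.91 in titled nicotine and 13.23 and 13.18 in titled saccharin. Both arrays titled nicotine were lower, by 0.24 on average (-0.24, SE 0.0565, limma adjusted p = 1). Mark3 differed by -0.070 without overlap and Sik3 by 0.13.

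Enzymes with the opposite and the parallel activity did not pass either. Histone acetyltransferases, which add the acetyl groups, had a median of 0.025 over 9 genes, with Kat6b at -0.21 (-0.024 without titled saccharin 1 and -0.39 without titled saccharin 2), Kat8 at 0.059 and Kat2a at -0.053, the last turning to 0.00099 with centred arrays. Sirtuins, the deacetylases that use NAD, had a median of -0.043 over 7 genes, with Sirt3 at -0.043 (0.010 with centred arrays) and Sirt5 at -0.19 (-0.015 without titled saccharin 1 and -0.36 without titled saccharin 2). Sirt2, abundant in myelinating cells, read 11.91 and 11.92 in titled nicotine and 11.84 and 11.77 in titled saccharin. It was higher in titled nicotine by 0.11 without overlap (SE 0.0335, limma adjusted p = 1). The 8 oligodendrocyte markers averaged 12.86 and 12.91 in titled nicotine and 12.79 and 12.67 in titled saccharin. Within both numbers 6 of the 8 were higher in titled nicotine, against 16.8% of all genes at the median level. The part of these markers in the Sirt2 value was not tested.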

How the data were processed

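The values of 4 Affymetrix arrays, 2 per title, were analysed. The authors deposited log2 expression values per probe set; the scale was read from the values, and how the scans were corrected, scaled and summarised is not given here. Per the file headers, the authors' deposited table holds log2 fold changes and mean levels, p-values and adjusted p-values, and a score per probe set (moderated statistic and log odds); the submitters' processing notes name limma. Its symbols named the members, and other genes were updated through RefSeq names of GRCm38.p6. All 45101 probe sets entered a limma fit (lmFit and eBayes, version 3.58.1, under R 4.3.3), unfiltered and without a block, with Benjamini-Hochberg adjustment over all of them and a threshold of 0.05; the fit was tested on simulated data. The number of arrays, not depth, limits precision. Number effects came from a fit with title and number.

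A gene outside the family was read at its brightest probe set, and the text names, per list, up to 3 genes by lowest p among those whose level reached the median. The split of members at means of 7 and 5 was made after their values were seen. Members and lists were chosen with earlier results of these data known; 1 listed partner gene is not reported here. With 2 pairs the numbers could not be shown to pair arrays, so differences within numbers are given as values. Alternatives were quantile normalization, centring, a filter at the median level, limma's trended and robust variances, a block on the number, the authors' adjusted p, the mean of a gene's probe sets, title left out of the number fit, and each array left out.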

Additional observations from a re-analysis of the deposited data

How the results depend on the processing

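The count of histone deacetylase probe sets past the threshold between the titles was 0 under all 10 alternatives run. The count over all probe sets, 1 as reported, was 0 with quantile normalization, centring, the filter, the trend and robust model and the replicate block, 14 in the authors' deposited table, and 0 to 379 with 1 array left out (379 without titled nicotine 1, 277 without titled saccharin 1, 0 without the others). The block on the array number changed no call among members: 0 of 17, at a smallest adjusted p of 0.496. The median difference over the 10 genes was -0.18 to 0.0087 with 1 array left out. With all arrays kept it was -0.044 (mean of a gene's probe sets) to 0.014 (centring), so its sign was not fixed. Between the numbers, 0 member probe sets were called as reported, 4 with centring and 1 without title as a term. Over all probe sets the counts were 0, 8847 and 1102 in that order, and 49 with the trend and robust model. In the centred fit limma's prior degrees of freedom became infinite, so all probe sets shared 1 variance; the cause was not tested. Leaving out an array there left no residual degrees of freedom and hence no test.

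Signs turned under centring for Hdac3 (0.012), Hdac4 1454693_at (0.051), Hdac7 1420812_at (0.017), Hdac9 1434572_at (0.00053), Hdac11 1451229_at (0.042), Ncor1 (0.032), Kat2a (0.00099) and Sirt3 (0.010). Centring raised every difference between the titles by the same amount, so those just below 0 turned positive. Under quantile normalization signs turned for Hdac4 1454693_at (0.020), Hdac7 1420812_at (0.034) and Hdac11 1451229_at (0.00046), and the cause of these turns was not tested. With 1 array left out, the differences that turned ranged from -0.37 to 0.077 for Hdac1, -0.040 to 0.12, -0.29 to 0.012 and -2.53 to 0.64 for Hdac2 1445684_s_at, 1449080_at and 1439704_at, -0.13 to 0.051 for Hdac3, -0.19 to 0.18, -0.38 to 0.19 and -0.36 to 1.49 for Hdac4 1454693_at, 1436758_at and 1447566_at, -0.22 to 0.25 for Hdac5, -0.73 to 0.65 for Hdac7, -0.36 to 0.25 for Hdac9, -0.36 to 0.022 for Hdac6 and -0.10 to 0.082 for Hdac11 1451229_at. Among the partners they ranged from -0.30 to 0.079 for Mta1, -0.18 to 0.049 for Rbbp7, -1.07 to 0.34 for Chd4, -0.49 to 0.085 for Sin3a, -0.46 to 0.41 for Ncor1, -0.025 to 0.14 for Kat8 and -0.15 to 0.041 for Kat2a. Partners that did not turn but moved by over 1.5 times ranged from -0.14 to -0.021 for Ing2, -0.51 to -0.18 for Rest, -0.30 to -0.054 for Kdm1a, 0 to 0.25 for Rcor2, -0.22 to -0.073 for Tbl1xr1, 0.051 to 0.53 for Gps2, -0.12 to -0.024 for Mark3, 0.015 to 0.24 for Sik3, -0.39 to -0.024 for Kat6b, -0.083 to -0.0042 for Sirt3 and -0.36 to -0.015 for Sirt5. The step between the numbers ranged from -0.37 to 0.062 for Hdac4 1454693_at and from -0.022 to 0.38 for Hdac6.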
